A study of Caenorhabditis elegans with 37 samples.

Results

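The homeobox genes described here were 75 of the 30631 genes in the counted table. They were chosen by name: every gene with a symbol of the form ceh-number apart from ceh-13 and ceh-14, together with unc-4, unc-42, unc-62, ttx-1, mls-2, vab-3, vab-7, vab-15, zag-1, dsc-1, eyg-1, pal-1, tab-1 and duxl-1. The rule also names cog-1, which was not matched by its symbol and is not analysed here. Transcript levels came from RNA-seq of 37 libraries of FACS-sorted Caenorhabditis elegans cells, in 10 groups. There were 4 libraries of ASG, 4 of AWA and 5 of AWB, which are sensory neurons of the amphid, 3 of AVE and 3 of AVG, which are interneurons, 3 of DD and 4 of VD, the GABAergic motor neurons of the ventral cord, and 2 of PVD, a mechanosensory neuron with a branched dendrite. A pan-neuronal sort (5 libraries, targeted with a Rab3 marker) and an all-cell sort of living cells (4 libraries) served as references. All groups were untreated worms fed NA22 bacteria, and the sources used here give no strain, stage or sex and no marker for the single-type sorts. Nothing in the labels says that libraries came from separate cultures, so p-values reflect only library-to-library spread, which could be technical.

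Homeobox genes encode transcription factors that bind DNA through a homeodomain. In C. elegans many of them act as terminal selectors, which switch on and maintain the effector genes that give a neuron class its identity, often in combination with another homeodomain protein. Subfamilies differ in known use. The CUT proteins act across the nervous system. Among the TALE proteins, such as CEH-20, CEH-60 and UNC-62, CEH-20 and UNC-62 partner Hox proteins. Many paired-like and NK-like proteins mark few neuron classes.

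Levels are CPM, counts scaled to a common library size with TMM factors, and differences are log2 differences ± SE from edgeR's quasi-likelihood test with Benjamini-Hochberg adjustment over all genes tested. A gene was called at an adjusted p under 0.05. Of the 75 homeobox genes, 55 passed the filter on low counts, among 15181 genes tested. The 20 that did not pass had at most 202 counts over all libraries, and ceh-84 had none. By subfamily the 75 were 21 NK-like, 14 paired-like, 6 CUT, 4 TALE, 3 sine oculis-type, 3 Hox-like, 3 HOCHOB, 2 POU and 1 ZEB gene, with 18 given no subfamily here.

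Library totals ran from 251586 to 5415925 counts (median 1638118). The sorts were set against marker lists for their types. The guanylyl cyclase genes gcy-15 and gcy-21 marked ASG, odr-10 and odr-7 marked AWA, str-1 and lim-4 marked AWB, mec-3 and des-2 marked PVD, and unc-25 marked DD and VD. The AVE markers glr-1 and nmr-1, glutamate receptor subunits, averaged 191 and 47.1 CPM in AVE but 490.2 and 448 CPM in AVG, and nmr-1 averaged 56.7 CPM in the pan-neuronal sort, so these markers did not set the AVE sort apart. The AWB marker str-44 was higher in AWA (mean 1077 CPM) than in AWB (20.4 CPM). DD and VD shared their markers, with flp-13 at a mean of 1200.0 CPM in DD and 235.2 CPM in VD. Library AWB 51 stood apart, with 0.00845% of its counts in the AWB list against 0.0660 to 0.188% in the other AWB libraries and 0.429% in the pharyngeal muscle list. Library AWA 20 had 0.147% of its counts in the AWA list against 0.283 to 1.003% in the others, and 1.45% in the intestine list. Library pan-neuronal 1 had 0.0840% of its counts in the ASG list against 0.0207 to 0.0232% in the other 4. The named differences of AWA, of AWB and between the reference sorts were also computed without the library of their own group that stood apart.

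**Figure D1:**
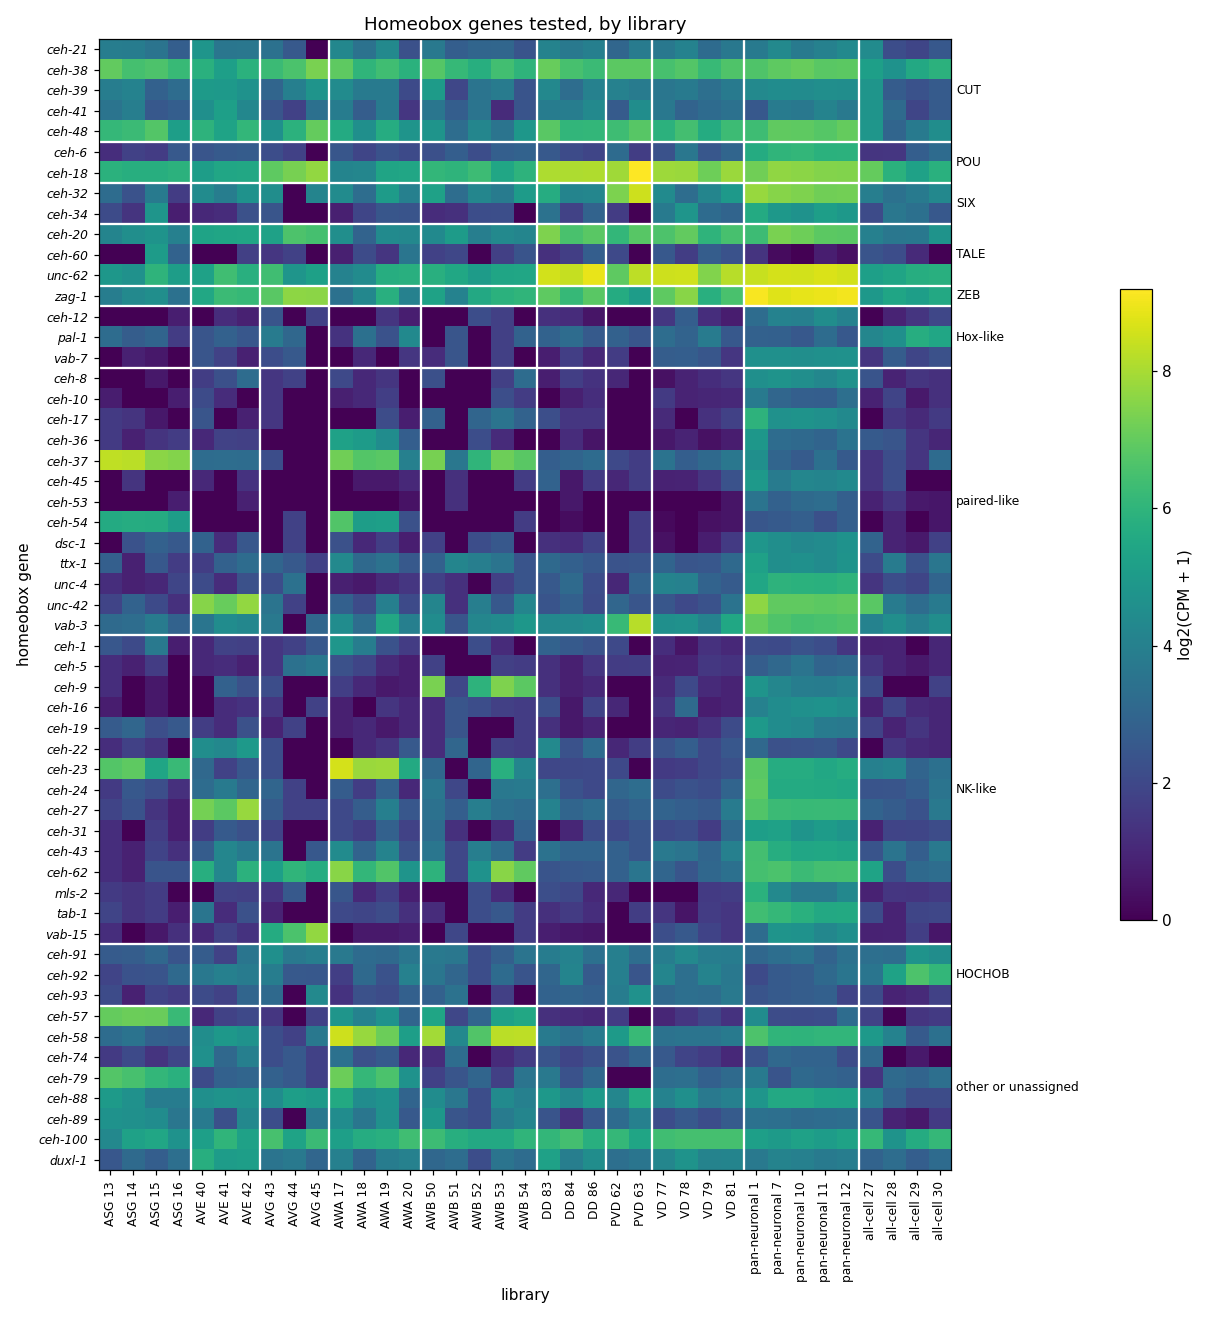
Level of each of the 55 tested homeobox genes (rows, grouped by subfamily) in each of the 37 libraries (columns, grouped by sort), as log2(CPM + 1). The pan-neuronal columns are filled over most rows, whereas each single-type sort has a few bright rows, and zag-1, unc-62, ceh-18 and ceh-38 are bright in many columns.

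Homeobox transcripts were mostly higher in the pan-neuronal sort than in all cells. In the pan-neuronal sort against the all-cell sort, 43 of the 55 tested homeobox genes were higher, where 32.2% of all tested genes were called higher, and 3 were lower, where 26.9% of all genes were. Their median log2 difference was 2.56, against 0.000126 for all genes. All 75 genes together took 0.248 to 0.294% of the counts in the pan-neuronal libraries and 0.0656 to 0.0886% in the all-cell libraries, and these ranges did not overlap. All 15 tested NK-like genes were called higher, as were 12 of 13 paired-like, both POU and both sine oculis-type genes. Of 21 homeobox genes outside the rule (LIM, Hox and other classes), 20 were higher and 0 lower, and 21 of 22 pan-neuronal effector genes were higher.

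The paired-like gene ceh-17, a Phox2 homologue needed for axon growth of the ALA and SIA neurons, and the Bsh homologue tab-1 led this comparison. ceh-17 measured 60.5, 24.2, 25.2, 23.3 and 19.5 CPM in the pan-neuronal libraries and 0, 1.77, 1.13 and 1.93 CPM in the all-cell libraries, a log2 difference of 4.54 ± 0.85 (adjusted p = 4.59e-05). The groups did not overlap, and the highest of these values was library pan-neuronal 1, without which the difference was 4.13. tab-1 measured 82.6, 68.2, 56.7, 45.4 and 47.5 CPM against 3.34, 0.886, 2.82 and 2.89 CPM, a log2 difference of 4.53 ± 0.54 (adjusted p = 8.39e-08), and 4.39 without pan-neuronal 1. The goosecoid homologue ceh-45 (4.07), the Msx homologue vab-15 (4.07), the engrailed homologue ceh-16 (3.93), the HMX homologue mls-2 (3.86), unc-4 (3.84), ceh-54 (3.71) and the POU gene ceh-6 (3.68) followed on the log2 scale, each with no overlap between groups. Without pan-neuronal 1 these 7 differences were 3.24 (mls-2) to 4.26 (vab-15). zag-1, the ZEB gene that controls neuronal differentiation and axon guidance, was the most abundant homeobox gene per length in the pan-neuronal sort at 218 CPM per kb. It measured 547, 425, 455, 488 and 528 CPM against 29.2, 41.7, 34.9 and 46.3 CPM, a log2 difference of 3.68 ± 0.43 (adjusted p = 5.12e-08).

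The TALE genes unc-62 and ceh-20 were also higher in the pan-neuronal sort. The Meis homologue unc-62 measured 339, 391, 377.3, 406 and 381 CPM in the pan-neuronal libraries and 35.1, 39.9, 51.8 and 54.9 CPM in the all-cell libraries, a log2 difference of 3.05 ± 0.39 (adjusted p = 2.21e-07). The Pbx homologue ceh-20 had a log2 difference of 2.91 ± 0.36 and the CUT gene ceh-48 one of 2.69 ± 0.43. Neither gene's groups overlapped. Of the 5 tested CUT genes 2 were called, and ceh-21, ceh-39 and ceh-41 were not.

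The 3 genes lower in the pan-neuronal sort were ceh-92, pal-1 and ceh-91. pal-1, the Caudal homologue that specifies posterior blastomeres in the embryo, measured 6.31, 6.01, 4.81, 8.47 and 4.78 CPM in the pan-neuronal and 17.5, 23.05, 52.4 and 42.9 CPM in the all-cell libraries, a log2 difference of -2.47 ± 0.55 (adjusted p = 0.000312). ceh-92 measured 3.16, 5.15, 5.55, 7.77 and 10.9 CPM against 10.9, 38.1, 97.5 and 67.4 CPM, -3.04 ± 0.51 on the log2 scale (adjusted p = 1.11e-05). The pal-1 groups were separate, and those of ceh-92 overlapped at all-cell 27. ceh-91 had a log2 difference of -0.93 ± 0.36 (adjusted p = 0.0251), and the call was lost without pan-neuronal 1, all-cell 29 or all-cell 30, with adjusted p of 0.0511 to 0.119. The germline list moved with these genes: 9 of its 10 genes were lower in the pan-neuronal sort, and its share was 0.0218 to 0.0328% of counts there and 0.194 to 0.482% in the all-cell libraries. Its part in the lower homeobox levels was not tested.

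1 all-cell library differed from the rest in unc-42, a gene singled out here after its values were seen. unc-42 measured 113, 13.3, 8.45 and 12.5 CPM in all-cell libraries 27, 28, 29 and 30. With all 4 libraries the pan-neuronal sort was higher by 1.91 ± 0.59 (adjusted p = 0.00664), and without library 27 by 3.58 (6.05e-06 adjusted). The same library had 0.154% of its counts in the pan-neuronal marker list, against 0.0402 to 0.0677% in the others.

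**Figure D2:**
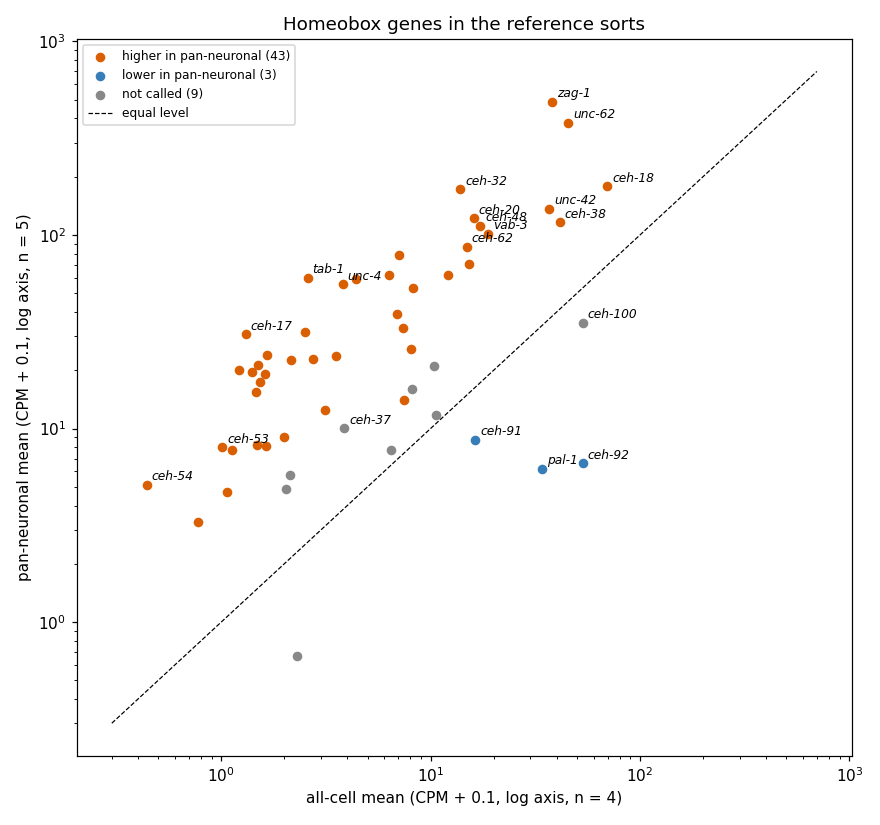
Mean level of each tested homeobox gene in the all-cell sort (x axis, 4 libraries) and the pan-neuronal sort (y axis, 5 libraries), in CPM with a small offset on log axes, coloured by the call. 43 genes lie above the line of equal level and were called, and pal-1, ceh-92 and ceh-91 lie below it.

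Against the pan-neuronal sort, each single-type sort had few homeobox genes higher and many lower. The 8 comparisons share the 5 pan-neuronal libraries, so their values are given side by side. In ASG 5 were higher and 34 lower, where 16.8% of all genes were higher and 20.8% lower. In AWA 7 were higher and 31 lower (all genes 18% and 19.8%). In AWB 5 were higher and 34 lower (all genes 19.6% and 24.1%). The interneuron AVE had 3 higher and 32 lower (all genes 13.1% and 20.5%), and AVG had 2 and 29 (all genes 11.7% and 19.7%). DD had 2 higher and 33 lower (all genes 18.3% and 20.8%), VD had 3 and 33 (all genes 27.7% and 28.5%), and PVD had 2 and 28 (all genes 8.84% and 13.8%). The median log2 difference of the 55 genes lay between -2.71 (ASG) and -2.17 (AVE), while the median of all genes lay between -0.12 and 0.21. In these bulk samples fewer cells of a type and less RNA per cell cannot be told apart. The 21 homeobox genes outside the rule were higher and lower in the same comparisons as follows: 5 and 14 in ASG, 0 and 18 in AWA, 1 and 16 in AWB, 0 and 15 in AVE, 2 and 16 in AVG, 6 and 11 in DD, 2 and 10 in VD, and 3 and 9 in PVD. The PVD counts rest on 2 libraries, and with 1 of them left out no spread within PVD could be estimated.

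**Figure D3:**
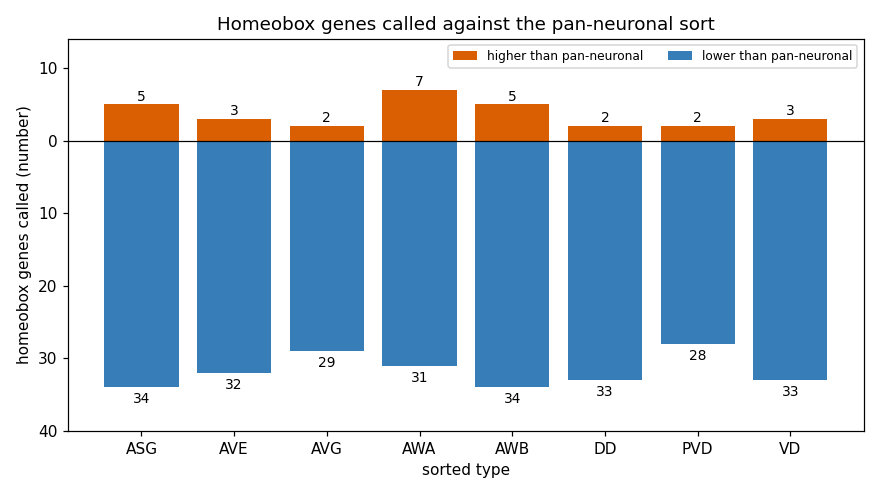
Number of homeobox genes called higher (above 0) and lower (below 0) in each sorted type than in the pan-neuronal sort. Between 28 and 34 genes were lower and between 2 and 7 higher in each type.

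Many homeobox genes of the pan-neuronal sort were at low levels in every sorted type. A mean of at least 20 CPM was reached by 30 genes in the pan-neuronal sort, and 14 of these stayed under 20 CPM in all 8 types. They were the POU gene ceh-6, tab-1, ceh-24, unc-4, the Distal-less homologue ceh-43, the sine oculis-type gene ceh-34 of pharyngeal neurons, ceh-31, ceh-17, ttx-1, mls-2, vab-7, dsc-1, ceh-8 and ceh-16. ceh-6 had a mean of 59.2 ± 6.81 CPM (SD, n = 5) in the pan-neuronal libraries, and its means in the types were 1.99 to 6.78 CPM. ceh-24, an NK-like gene, averaged 61.9 ± 32.9 CPM there and 2.97 to 9.39 CPM in the types. ttx-1, the Otx homologue that specifies the thermosensory AFD neuron, averaged 25.8 ± 6.55 CPM there and 3.40 to 10.5 CPM in the types. In the 8 types, 48 of the 75 genes reached 20 CPM in none, 9 in 1, 5 in 2, 3 in 3, 2 in 4, 2 in 6, 2 in 7 and 4 in all 8. Conversely, 11 genes were under 20 CPM in the pan-neuronal sort and reached that level in at least 1 type.

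Several genes had no counts at all in a type. In PVD, ceh-17, vab-15 and ceh-19 had no counts, which put them at least 14.5-fold, 9.43-fold and 8.98-fold lower than the pan-neuronal mean, with a floor of 3 counts over the group. In AVG, ceh-45, ceh-36 and ceh-53 had no counts and were at least 12.7-fold, 8.06-fold and 5.16-fold lower. In AVE, ceh-54 had no counts and was lower by at least 5.04-fold. In ASG the lowest of the named genes were ceh-8, the Rx homologue (-6.68 on the log2 scale), ceh-12 (-6.09) and vab-7 (-5.92), each with counts in only 1 or 2 ASG libraries. In AWA they were unc-4 (-5.56), ceh-53 (-5.44) and vab-15 (-5.14), and in AWB mls-2 (-5.05), ceh-45 (-4.75) and tab-1 (-4.70). In AVE, beside ceh-54, they were ceh-12 (-4.41) and ceh-53 (-4.38). In DD they were tab-1 (-5.18), vab-15 (-5.12) and ceh-54 (-4.98), and in VD ceh-53 (-5.55), tab-1 (-5.19) and dsc-1 (-4.76), a paired-like gene of defecation behaviour. Of these, ceh-53 in AWA, AVE and VD and ceh-54 in DD had counts in only 1 library of the group. Without AWA 20 the AWA difference of vab-15 was -5.43, the smallest of the 3 in size. ceh-53 then had no counts left in AWA, so its value of -7.03 is no measured size. Without AWB 51 the 3 AWB differences were -4.34 (tab-1) to -5.31 (ceh-45).

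The Otx homologues ceh-36 and ceh-37 had their highest means in different amphid sorts, ceh-36 in AWA and ceh-37 in ASG. ceh-37, which is known to act in AWB fate, measured 319, 299, 191 and 179.7 CPM in ASG, 147, 105, 114 and 15.2 CPM in AWA, 159, 11.5, 63.6, 142 and 113 CPM in AWB and 22.9, 7.08, 5.18, 9.41 and 5.12 CPM in the pan-neuronal libraries. The ASG libraries were the highest of all, and the AWA and AWB ranges overlapped the pan-neuronal range at AWA 20 and AWB 51. Against the pan-neuronal sort it was higher by 4.62 ± 0.58 in ASG (adjusted p = 9.08e-08), 3.24 ± 0.55 in AWA (adjusted p = 1.60e-05) and 3.29 ± 0.54 in AWB (adjusted p = 1.15e-05). Without AWA 20 the AWA value was 3.60, and without AWB 51 the AWB value was 3.59. The means in the 5 other types were 1.17 to 8.83 CPM.

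ceh-36, known for the AWC and ASE sensory neurons, was higher in AWA than in the other amphid sorts. It measured 37.3, 32.1, 21.4 and 5.66 CPM in AWA, 1.99, 0.800, 1.58 and 2.12 CPM in ASG, 0, 0, 3.53, 1.19 and 0 CPM in AWB and 28.1, 8.58, 7.78, 6.83 and 10.2 CPM in the pan-neuronal libraries. Every AWA library was above every ASG and AWB library. AWA was higher than AWB by 5.05 ± 0.84 (adjusted p = 5.52e-05) and higher than the mean of the other types by 5.72 ± 0.50 (adjusted p = 1.08e-10). Against the pan-neuronal sort the AWA difference was 0.95 ± 0.54 (adjusted p = 0.166), and with pan-neuronal 1, AWA 20 and AWB 51 left out together it was 1.87 with an adjusted p of 0.00339. Without AWA 20 alone it was 1.29 (adjusted p 0.0539).

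ceh-54, a paired-like gene, and ceh-79 were high in ASG and AWA. ceh-54 measured 47.7, 50.4, 49.9 and 33.95 CPM in ASG and 103, 33.7, 35.5 and 3.89 CPM in AWA, and 4.47, 5.15, 5.92, 3.77 and 5.81 CPM in the pan-neuronal libraries. It had counts in 1 of the 5 AWB libraries, at 2.14 CPM. The ASG libraries were all above the pan-neuronal range, and AWA 20 was inside it. The difference from the pan-neuronal sort was 3.17 ± 0.58 in ASG (adjusted p = 4.60e-05) and 3.11 ± 0.58 in AWA (adjusted p = 6.75e-05). AWA exceeded AWB by 6.80 ± 0.96 (adjusted p = 4.32e-06), the greatest difference of the 55 genes between these sorts. ceh-79 measured 105, 91.2, 67.8 and 55.9 CPM in ASG, 141, 69.1, 95.9 and 24.8 CPM in AWA and 2.46, 4.32, 7.06, 2.38 and 10.7 CPM in AWB, against 12.9, 4.29, 7.78, 7.06 and 6.15 CPM in the pan-neuronal libraries. Its ASG and AWA ranges lay wholly above the AWB and pan-neuronal ranges. The differences from the pan-neuronal sort were 3.38 ± 0.43 in ASG (adjusted p = 1.69e-07) and 3.42 ± 0.43 in AWA (adjusted p = 1.85e-07). Without AWA 20 the AWA differences from the pan-neuronal sort were 3.50 for ceh-54 and 3.73 for ceh-79.

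ceh-23, an NK-like gene known from reporter lines in amphid neurons, was the most abundant homeobox gene per length in AWA, at 212 CPM per kb. It measured 389, 222, 227 and 46.7 CPM in AWA, 105, 120.0, 41.5 and 74.98 CPM in ASG, 7.38, 0, 7.06, 54.8 and 17.1 CPM in AWB and 114, 50.8, 50.7, 44.7 and 50.2 CPM in the pan-neuronal libraries. AWA 20 was the lowest AWA library and overlapped ASG and AWB. The difference of AWA from the pan-neuronal sort was 1.83 ± 0.54 (adjusted p = 0.00773), and without AWA 17 it was 1.34 with an adjusted p of 0.0581. Against AWB it was 3.59 ± 0.61 (adjusted p = 5.90e-05). The NK-like gene ceh-1 was low in all sorts and reached 27.4, 13.8, 3.95 and 2.12 CPM in AWA, 1.84 ± 0.62 above the pan-neuronal sort (adjusted p = 0.0192), and without AWA 17 this was 0.98 with an adjusted p of 0.229. Without AWA 20 the AWA differences from the pan-neuronal sort were 2.17 for ceh-23 and 2.201 for ceh-1, both called.

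The NK-like gene ceh-9 was high in AWB. It measured 162, 2.88, 60.02, 172 and 116 CPM in the AWB libraries and 2.28, 1.11, 0.564 and 0.707 CPM in AWA, and the means in the other types were 0 to 3.39 CPM. The pan-neuronal libraries measured 25.8, 17.8, 14.1, 13.4 and 15.4 CPM. AWB 51 fell with the other types, and the remaining 4 AWB libraries lay above all libraries of the other groups. AWB exceeded the pan-neuronal sort by 2.57 ± 0.62 (adjusted p = 0.00112), the mean of the other types by 6.88 ± 0.51 (adjusted p = 2.24e-12), and AWA differed from AWB by -6.50 ± 0.89 (adjusted p = 2.53e-06). Without AWB 51 the first of these was 2.89.

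Of the neighbouring genes ceh-57 and ceh-58, the first was called higher in ASG and the second in AWA, each against the pan-neuronal sort. Both lie on chromosome II of the WBcel235 annotation, ceh-57 at 10363584 to 10367296 and ceh-58 at 10367741 to 10369597, on the same strand and 444 bases apart. ceh-57 measured 128, 138, 135 and 74.3 CPM in ASG, 26.6, 16.03, 24.8 and 6.72 CPM in AWA and 41.8, 2.88, 7.06, 36.9 and 44.9 CPM in AWB. ceh-58 measured 8.62, 10.4, 6.31 and 5.66 CPM in ASG, 359, 219, 139.9 and 34.3 CPM in AWA and 242, 18.7, 102, 303 and 310.2 CPM in AWB. In ASG ceh-57 was above ceh-58 in every library on both the CPM and the per-length scale (means 90.6 and 6.62 CPM per kb), and in AWA the order was the reverse in every library (means 14.1 and 161 CPM per kb). ASG exceeded the pan-neuronal sort for ceh-57 by 3.88 ± 0.57 (adjusted p = 1.54e-06) and AWB by 1.77 ± 0.55 (adjusted p = 0.00914). For ceh-58, AWA exceeded it by 1.40 ± 0.51 (adjusted p = 0.0279) and AWB by 1.46 ± 0.49 (adjusted p = 0.0155). The AWA call for ceh-58 was lost without any 1 of 5 libraries (adjusted p 0.0533 to 0.218), and the AWB call without AWB 53 or AWB 54 (0.0501 and 0.0717). Without AWA 20 the AWA difference of ceh-58 was 1.75, and without AWB 51 the AWB differences were 2.07 for ceh-57 and 1.76 for ceh-58, all 3 called.

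ceh-36 and ceh-37 are also neighbours, on chromosome X at 14183221 to 14186566 and 14197372 to 14208000, 10805 bases apart on the same strand. ceh-60, the Pbx homologue on the TALE list, was called higher than the pan-neuronal sort in 3 of the 8 types. Its pan-neuronal mean was 0.568 CPM. In ASG the difference was 3.94 ± 0.99 (adjusted p = 0.00165), but ceh-60 measured 0, 0, 32.1 and 6.37 CPM in ASG 13, 14, 15 and 16. Without ASG 15 the difference was 1.76 with an adjusted p of 0.217. ceh-62 reached 95.5 CPM in AWA, 79.9 in AWB, 49.7 in AVG and 43.3 in AVE on average, against 86.7 CPM in the pan-neuronal sort, and its means were 2.64 to 8.56 CPM in the other 4 types.

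**Figure D4:**
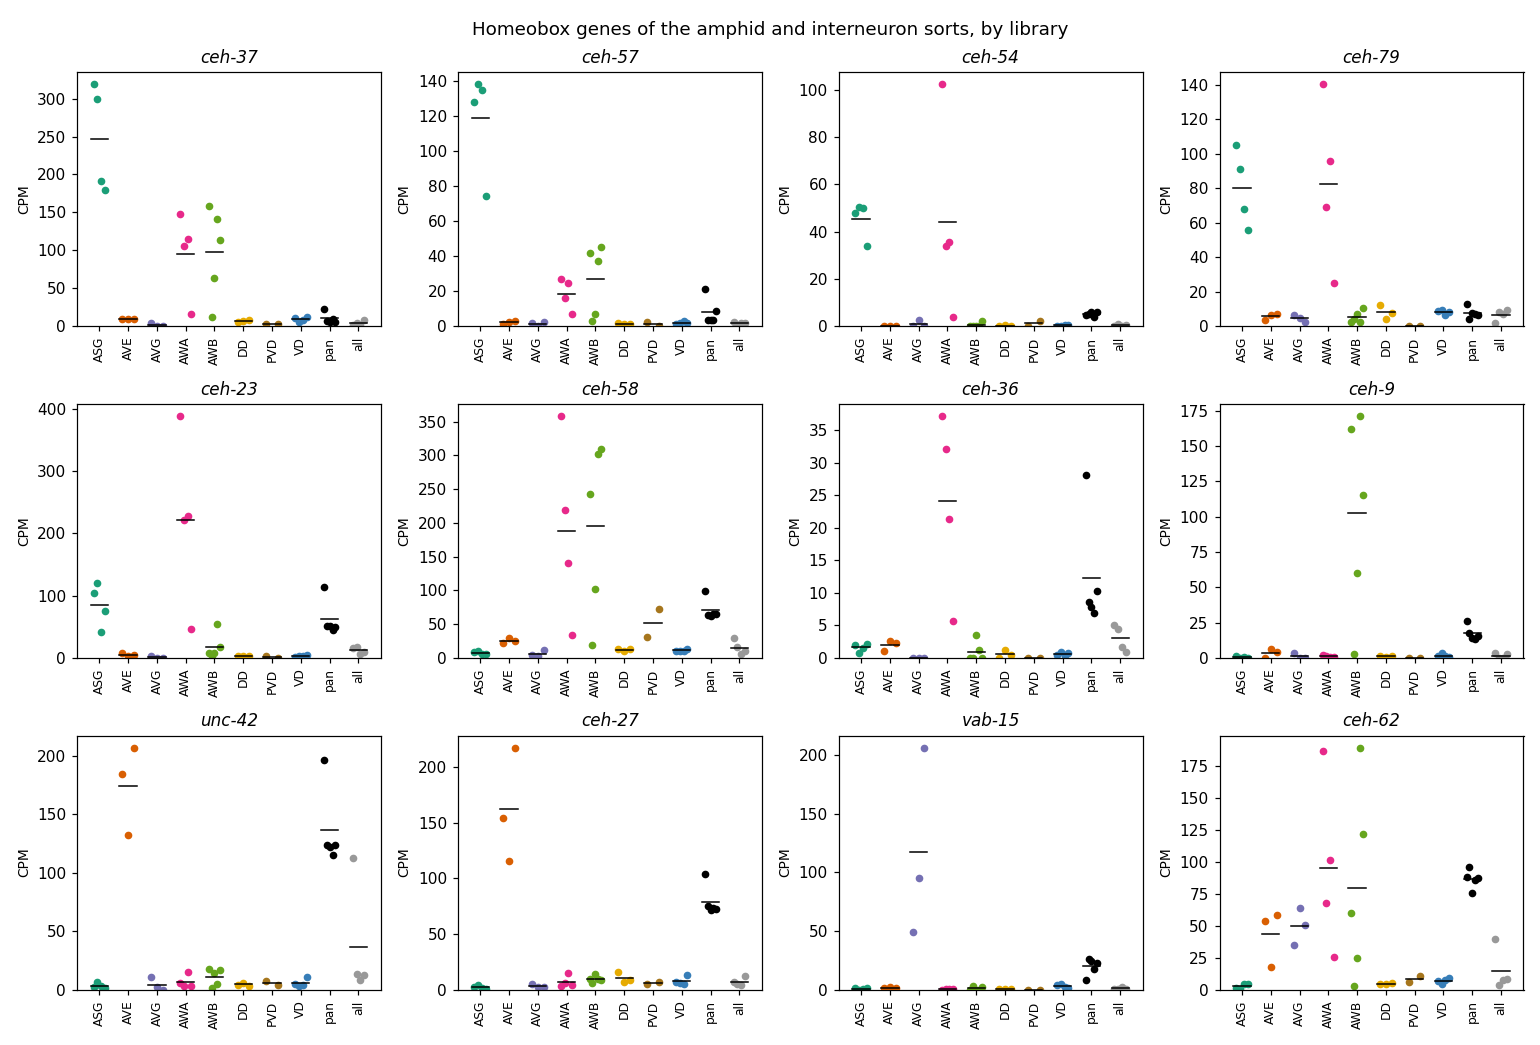
Level in CPM of 12 homeobox genes of the amphid and interneuron sorts in each library, by group, with points for libraries and a line for the group mean. ceh-37 and ceh-57 are highest in ASG, ceh-54 and ceh-79 high in ASG and AWA, ceh-23 and ceh-36 highest in AWA, ceh-9 in AWB, unc-42 and ceh-27 in AVE among the types, and vab-15 in AVG.

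The amphid sorts were also set against the other 7 types, taking the average of their log2 levels. In these comparisons types with few or no counts of a gene lower the mean, so a difference is no ratio of mean levels. ASG had 8 higher and 16 lower (all genes 16.8% and 13%), AWA 9 and 5 (all genes 13.2% and 4.51%) and AWB 6 and 5 (all genes 11.4% and 5.95%). The leading ASG genes were ceh-54 (6.27), ceh-57 (5.10), ceh-37 (4.41), ceh-79 (4.14) and ceh-23 (3.64). In AWA they were ceh-54 (6.19), ceh-36, ceh-23 (5.21), ceh-79 (4.18) and ceh-58 (3.22). In AWB they were ceh-9, ceh-58 (3.29), ceh-37 (2.90), ceh-17 (2.81) and ceh-57 (2.68), of which ceh-17 lost its call without AWB 53 (adjusted p 0.0615). Without AWA 20 the 5 AWA differences were 3.57 (ceh-58) to 6.58 (ceh-54), and without AWB 51 the 5 AWB differences were 2.98 (ceh-57) to 7.21 (ceh-9). Between AWA and AWB directly, 5 homeobox genes were higher in AWA and 2 lower, where 9.29% and 6.83% of all genes were. With these groups fitted alone 3 of the 7 calls held, for ceh-79, ceh-23 and ceh-9 (adjusted p 0.00246, 0.0330 and 0.00316), ceh-18 was not called (adjusted p 0.178), and ceh-54, ceh-36 and ceh-1 did not pass the count filter there. All 7 were called without AWA 20 and without AWB 51. Besides ceh-9 the lower gene was the POU gene ceh-18, at 16.7, 17.7, 40.05 and 42.1 CPM in AWA and 67.6, 61.95, 77.7, 42.9 and 59.9 CPM in AWB (-1.07 ± 0.32, adjusted p = 0.0196), a call lost without AWA 17, AWA 18 or AWB 52.

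In AVE, unc-42 and ceh-27 were the leading genes. unc-42 encodes a paired-like factor that specifies the command interneurons and controls their glutamate receptor genes. It measured 185, 132 and 207 CPM in AVE and averaged 3.40 to 10.9 CPM in the other types, and the pan-neuronal libraries measured 196, 124, 122, 115 and 124 CPM. Every AVE library was above every library of the other types, and the AVE and pan-neuronal ranges overlapped. AVE exceeded the mean of the other types by 4.91 ± 0.42 (adjusted p = 5.45e-11), while the difference from the pan-neuronal sort was 0.36 ± 0.60 (adjusted p = 0.677). The AVE counts against other types were 8 higher and 2 lower (all genes 10.3% and 3.37%). In AVG, where the AVE markers glr-1 and nmr-1 were higher than in AVE, unc-42 measured 10.5, 2.44 and 0 CPM.

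ceh-27, an NK-2 class gene, measured 154, 115 and 218 CPM in AVE and averaged 2.23 to 10.5 CPM in the other types, with 103.6, 75.1, 71.8, 73.2 and 72.1 CPM in the pan-neuronal libraries. AVE was above all other types in every library. The difference from the mean of the other types was 4.78 ± 0.27 (adjusted p = 2.87e-15). That from the pan-neuronal sort was 1.04 ± 0.38 (adjusted p = 0.0320) and the call was lost without any of 7 libraries (adjusted p 0.0542 to 0.197). duxl-1 measured 52.9, 32.6 and 34.98 CPM in AVE and 12.1, 16.3, 15.2, 12.5 and 14.01 CPM in the pan-neuronal libraries, 1.52 ± 0.32 higher (adjusted p = 0.000502), with no overlap. Less abundant genes above the other types in AVE were ceh-74, at 23.7, 7.53 and 14.8 CPM (2.14 ± 0.55), and tab-1, at 10.8, 1.25 and 3.89 CPM (1.89 ± 0.52), and both calls were lost without AVE 40 (adjusted p 0.152 and 0.518).

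ceh-22, the Nkx2-5 homologue of pharyngeal muscle, measured 21.6, 18.8 and 29.5 CPM in AVE and 7.63, 3.86, 4.07, 4.47 and 3.07 CPM in the pan-neuronal libraries, 2.32 ± 0.62 higher (adjusted p = 0.00428). The ranges did not overlap. The pharyngeal muscle list took 0.0409 to 0.0769% of counts in AVE and 0.0138 to 0.0299% in the pan-neuronal libraries, with 1 of its 6 genes called higher. In DD, where that list took 0.0681 to 0.250%, and 6 of its 6 genes were higher than in the pan-neuronal sort, ceh-22 measured 19.3, 4.01 and 8.28 CPM. The part of pharyngeal muscle RNA in the AVE level was not tested.

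In AVG the leading gene was vab-15, an Msx homologue needed for touch receptor neurons. It measured 49.2, 95.3 and 206 CPM in AVG and averaged 0 to 3.22 CPM in the other types, and the pan-neuronal libraries measured 8.41, 25.96, 24.4, 17.9 and 22.9 CPM. The 3 AVG libraries lay above every other library. AVG exceeded the pan-neuronal sort by 2.54 ± 0.49 (adjusted p = 0.000167) and the mean of the other types by 7.33 ± 0.40 (adjusted p = 5.19e-16). Against the other types 4 genes were higher and 3 lower in AVG (all genes 7.24% and 4.29%). These included zag-1, at 113, 195 and 194 CPM (1.82 ± 0.31, adjusted p = 4.36e-05), and the Vax homologue ceh-5, at 1.76, 9.77 and 11.98 CPM, whose call was lost without AVG 44 or AVG 45. The fourth, ceh-62, was called at an adjusted p of 0.0493 and lost the call when any of 16 libraries was left out.

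In DD and VD no homeobox gene was called between the sorts. At an unadjusted p under 0.05, 3 genes differed (ceh-1, vab-7 and vab-15), the smallest adjusted p by edgeR's quasi-likelihood test was 0.256, and DESeq2 called 0. Of all genes 0.0856% were called higher in DD and 0.0988% lower. The log2 differences of the 55 genes ran from -2.49 to 2.11. A p that misses the threshold does not show equal levels. Among the genes of the rule, unc-4, vab-7 and ceh-12 are known for the VA, DB and VB motor neurons, which are other ventral cord classes. In DD unc-4 measured 4.99, 8.01 and 3.49 CPM and in VD 16.1, 15.5, 6.58 and 5.29 CPM, against 42.3, 60.5, 58.1, 55.8 and 61.5 CPM in the pan-neuronal libraries. The pan-neuronal range was above both. The Even-skipped homologue vab-7 measured 0.713, 2.25 and 1.09 CPM in DD, 5.59, 5.75, 4.44 and 1.76 CPM in VD and 23.7, 23.4, 22.6, 23.8 and 24.3 CPM in the pan-neuronal libraries. The HB9 homologue ceh-12 measured 1.43, 1.25 and 0.436 CPM in DD, 1.81, 5.75, 1.32 and 0.661 CPM in VD and 8.41, 15.7, 15.2, 21.7 and 15.7 CPM in the pan-neuronal libraries. The log2 differences of DD from the pan-neuronal sort were -3.32 ± 0.55 for unc-4, -3.98 ± 0.72 for vab-7 and -3.91 ± 0.88 for ceh-12, and those of VD were -2.36 ± 0.46, -2.42 ± 0.56 and -2.76 ± 0.70, all called. Against the mean of the other types, VD was higher in unc-4 by 2.02 ± 0.35 (adjusted p = 0.000116), and in the sine oculis-type gene ceh-34, at 12.5, 26.5, 8.39 and 6.83 CPM (2.14 ± 0.50, adjusted p = 0.00273). vab-7 and ceh-12 were also called higher in VD, with VD means of 4.39 and 2.38 CPM. Their means over the other types were 1.48 and 0.848 CPM. ceh-34 also reached 26.8 CPM in ASG 15 but 0.707 to 3.31 CPM in the other ASG libraries.

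The Hox cofactors unc-62 and ceh-20 were high in the D-type motor neurons. unc-62 measured 381, 335 and 469.6 CPM in DD, 361, 368, 173 and 296 CPM in VD and 339, 391, 377.3, 406 and 381 CPM in the pan-neuronal libraries, and averaged 35.7 to 58.6 CPM in the 5 amphid and interneuron sorts. DD, VD and pan-neuronal ranges overlapped, and all DD and VD libraries were above every amphid and interneuron library. Against the mean of the other types unc-62 was higher by 2.44 ± 0.26 in DD (adjusted p = 1.74e-08) and 1.98 ± 0.25 in VD (adjusted p = 4.67e-07). ceh-20 measured 170.5, 92.2 and 114 CPM in DD and 97.5, 124, 62.5 and 91.2 CPM in VD, with differences of 1.63 ± 0.25 (adjusted p = 2.16e-05) and 1.16 ± 0.24 (adjusted p = 0.000775). In the amphid sorts ceh-20 averaged 19.8 (ASG), 16.8 (AWA) and 20.3 CPM (AWB). High ceh-20 was not particular to DD and VD. Per length it averaged 95.9 CPM per kb in DD, 71.7 in VD, 68.1 in PVD, 57.05 in AVG and 31.3 in AVE. Against the mean of the other types ceh-20 was not called in PVD (1.06 ± 0.33, adjusted p = 0.0521) or AVG (0.75 ± 0.29, adjusted p = 0.0925). Other genes called higher in DD than in the other types were ceh-18 (1.55 ± 0.24), ceh-22 (1.75 ± 0.51) and duxl-1 (0.93 ± 0.26), the last also at 0.79 ± 0.32 over the pan-neuronal sort (adjusted p = 0.0499). The ceh-22 and duxl-1 calls were lost without any 1 of several libraries, with adjusted p of up to 0.492 and 0.529. In VD zag-1 was higher by 1.19 ± 0.28, a call lost without VD 78 (adjusted p 0.0593), and ceh-91 exceeded the pan-neuronal sort by 0.80 ± 0.35 (adjusted p = 0.0491), a call lost without any 1 of 9 libraries. DD had 5 homeobox genes higher than the other types and 0 lower (all genes 3.77% and 1.73%), and VD had 10 and 4 (all genes 13.9% and 6.81%). With DESeq2's size factors the split was 3 and 2 in DD and 7 and 5 in VD, and with library totals alone it was 6 and 2 in DD. Beside the 0 lower genes in DD by edgeR's quasi-likelihood test, 6 were lower at an unadjusted p under 0.05, and the DESeq2 Wald test called 6 lower.

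In PVD the leading genes were ceh-32, of the sine oculis type, and vab-3, the Pax6 homologue, both known for head morphogenesis. ceh-32 measured 165 and 358 CPM in the 2 PVD libraries, and averaged 6.84 to 28.4 CPM in the other types, with 217, 182, 168, 147 and 149 CPM in the pan-neuronal libraries. vab-3 measured 71.9 and 293 CPM in PVD, averaged 6.50 to 26.6 CPM in the other types and measured 128, 99.1, 87.4, 91.8 and 101 CPM in the pan-neuronal libraries. Both PVD libraries were above every library of the other types for both genes, and the PVD libraries themselves differed widely. Against the mean of the other types ceh-32 was higher by 3.92 ± 0.38 (adjusted p = 7.14e-10) and vab-3 by 3.51 ± 0.36 (adjusted p = 3.88e-09). Without PVD 63 the differences were 3.25 and 2.18, and without PVD 62 they were 4.38 and 4.21. Against the pan-neuronal sort neither gene was called in PVD, at 0.59 ± 0.56 (adjusted p = 0.482) for ceh-32 and 0.83 ± 0.51 (adjusted p = 0.251) for vab-3. unc-62 measured 119.8 and 313 CPM in PVD and was higher by 1.43 ± 0.34 (adjusted p = 0.00538), which without PVD 63 was 0.58 with an adjusted p of 0.775. PVD had 4 genes higher and 1 lower than the other types (all genes 4.43% and 0.817%).

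The POU gene ceh-18, known for control of oocyte meiosis from the gonadal sheath, was among the 4 homeobox genes at 20 CPM or more in all 8 types. It measured 237 and 584 CPM in PVD, 263, 269 and 272 CPM in DD, 228, 222, 143 and 226 CPM in VD and 120.4, 159 and 208 CPM in AVG, against 146, 200.1, 193, 177 and 174 CPM in the pan-neuronal libraries. DD was higher than the pan-neuronal range in each library but was not called, and PVD was called at 1.20 ± 0.36 (adjusted p = 0.0146). Without PVD 63 this was 0.25 with an adjusted p of 0.748. Its means in the amphid sorts were 55.7 (ASG), 29.1 (AWA) and 62.01 CPM (AWB). ceh-93, of the HOCHOB class, was the other gene called higher in PVD, at 13.5 and 23.9 CPM against 2.73 to 6.12 CPM (1.93 ± 0.67, adjusted p = 0.0337), and its call was lost without any of 5 libraries.

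zag-1 had no type at its pan-neuronal level. It averaged 16.3 to 168 CPM in the types, highest in AVG and lowest in ASG, against 425 to 547 CPM in the pan-neuronal libraries. PVD measured 48.97 and 32.6 CPM, DD 118, 70.1 and 112 CPM and VD 121, 189, 55.3 and 92.3 CPM, and no library of any type reached the pan-neuronal range. The log2 differences from the pan-neuronal sort were -3.56 ± 0.59 in PVD (adjusted p = 4.53e-05), -2.29 ± 0.44 in DD (adjusted p = 0.000149) and -2.10 ± 0.39 in VD (adjusted p = 4.99e-05). Of the 8 pan-neuronal marker genes, 2 were also lower in PVD, 3 lower and 1 higher in DD, and 5 lower and 1 higher in VD, and their share of counts was 0.334 to 0.520% in PVD, 0.545 to 0.781% in DD, 0.291 to 0.460% in VD and 0.466 to 0.541% in the pan-neuronal libraries.

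The CUT genes ceh-38 and ceh-48, ONECUT factors that act with others on pan-neuronal genes, were present in nearly all sorts. ceh-38 averaged 49.6 to 118 CPM in the types and 116 CPM in the pan-neuronal sort. ceh-48 averaged 18.1 to 94.99 CPM in the types and 112 CPM in the pan-neuronal sort, lowest in AWB, where it measured 25.8, 8.64, 17.7, 10.7 and 27.8 CPM. None of the 5 tested CUT genes was called higher in any type against the pan-neuronal sort, and at most 1 of them was called lower in each. ceh-41, ceh-21 and ceh-39 lie in a row on chromosome X (103 and 1137 bases apart, same strand), and their means were 5.47 to 25.2, 4.85 to 16.6 and 11.2 to 28.8 CPM in the types, each highest in AVE. ceh-100 averaged 30.7 to 87.1 CPM in the types and measured 35.2, 31.5, 37.03, 33.2 and 37.9 CPM in the pan-neuronal libraries. It was called higher in VD, at 82.05, 89.4, 87.9 and 89.2 CPM (1.32 ± 0.29, adjusted p = 0.000357), and in AVG, AWB and DD by 0.99, 0.72 and 0.98, of which the AWB call was lost without any 1 of the 10 AWB and pan-neuronal libraries (adjusted p 0.0509 to 0.195), the AVG call without AVG 43 or AVG 45 and the DD call without DD 84.

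**Figure D5:**
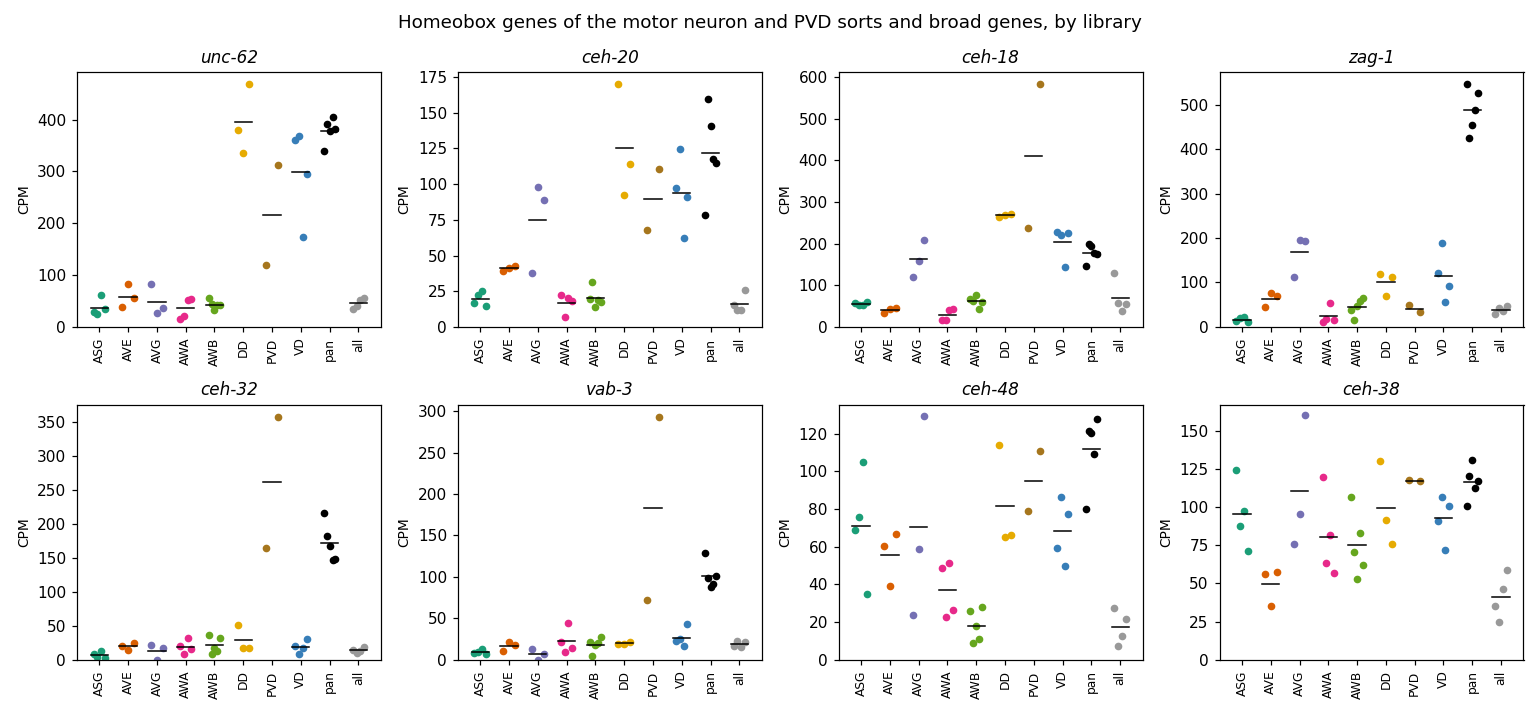
Level in CPM of 8 homeobox genes in each library, by group, with points for libraries and a line for the group mean. unc-62 and ceh-20 are high in DD, VD, PVD and the pan-neuronal sort, and ceh-20 also averages 74.7 CPM in AVG. ceh-32 and vab-3 are high in PVD and the pan-neuronal sort, and zag-1 in the pan-neuronal sort. ceh-38 averages 49.6 to 118 CPM in the types.

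The 20 homeobox genes that did not pass the filter were mostly at the edge of detection. The highest group mean among them was 5.54 CPM, for the BarH homologue ceh-30 in the pan-neuronal sort, and ceh-2 and ceh-51 averaged 3.91 and 3.69 CPM there. Of the 75 genes 20 share exon bases with another counted gene, and whether counting used strand is not stated in the sources used here. The longest overlap on the same strand was 809 bases between ceh-88 and C49C3.6, so the ceh-88 level is uncertain, and on the opposite strand it was 555 bases between ceh-22 and F29F11.19, which had 9 counts in all.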

How the data were processed

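The authors deposited raw counts of reads per gene for 37 libraries made with Tecan's SoLo Ovation RNA kit (per the labels' protocols), with gene length in a column of its own. STAR, SAMtools and featureCounts were used, per the submitters' processing notes. The sources used here give neither their versions and settings nor strand use or genome build, and the deposited table names the annotation release WS274. Group and library numbers came from the sample titles.

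Counts of 15181 genes that passed filterByExpr were fitted once over all 37 libraries with edgeR 4.0.16 (R 4.3.3, TMM factors, quasi-likelihood test), with 19 contrasts and Benjamini-Hochberg adjustment over all genes of a contrast. Test scripts were tested on simulated data. CPM is the count scaled to a common library size with TMM factors, and CPM per kb divides it by the deposited gene length. For the fold differences given as at least, a gene with no count in a group was set at a floor of 3 counts over the group. Mean CPM and log2 differences were computed from the counts as they stood. Floors cover counting error only, whereas SE and SD include the spread between libraries. Gene positions are from the WBcel235 annotation by gene identifier. Replicate pairs differed by 2.45 to 100.6 chi-square per degree of freedom (54 pairs), so none were counted as 1 sample. The homeobox genes, subfamilies and lists were chosen with earlier results of these data known. Genes named were the 10 highest and 5 lowest called for the reference sorts, up to 6 highest and 3 lowest for each type against the pan-neuronal sort, up to 5 for the other comparisons (all with 5 CPM or more as the mean of the higher group), and members with a textbook role in a sorted type or in all neurons. ceh-44, also on that list, was not matched by its symbol and is not analysed here. Alternatives were DESeq2 1.42.0 size factors, its Wald test, library totals alone, no filter, the compared groups alone and each library left out. Leaving out pan-neuronal 1, AWA 20 and AWB 51 together was chosen after seeing the data.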

Additional observations from a re-analysis of the deposited data

Results flagged for a closer look

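Among the named homeobox genes, 50 groups of 4 libraries and 54 of 5 libraries were examined for a single library far from the others. Chance flags about 1 in 20 where all libraries have counts, but a library alone in having counts is always flagged. In all, 19 outliers were found. Library pan-neuronal 1 accounted for 10 of them, always as the highest of the 5. There ceh-17 measured 60.5 CPM (others 19.5 to 25.2), mls-2 57.6 CPM, ceh-37 22.9 CPM, ceh-57 21.3 CPM, ceh-27 103.6 CPM, ceh-36 28.1 CPM, ceh-23 114 CPM, ceh-58 98.9 CPM, unc-42 196 CPM and ttx-1 37.1 CPM. Over all 55 tested homeobox genes this library was the highest of the 5 in 27 and the lowest in 17. It also had the highest share of counts in the ASG, AWA and AWB marker lists among the pan-neuronal libraries (0.0840, 0.0363 and 0.0184%), and their part in these levels was not tested.

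The other 9 were at low or moderate levels. ceh-57 and ceh-54 were lowest in ASG 16, at 74.3 CPM (others 128 to 138) and 33.95 CPM (others 47.7 to 50.4). ceh-91 was highest in VD 78 at 19.02 CPM. ceh-16 was highest in all-cell 28 at 2.66 CPM. In the remaining 5, 1 library alone had counts: ceh-8 in ASG 15 (0.526 CPM), ceh-12 in ASG 16 (0.707 CPM), ceh-53 in AWA 20 (0.354 CPM) and VD 81 (0.441 CPM), and ceh-54 in AWB 54 (2.14 CPM).

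For 7 genes the difference from the pan-neuronal sort differed between AWA and AWB. The test was edgeR's quasi-likelihood test of AWA minus AWB, the same contrast as given above. In it 5 of the 55 tested homeobox genes were higher and 2 lower, where 9.29% and 6.83% of all genes were. The contrast was 6.80 on the log2 scale for ceh-54, 5.05 for ceh-36, 4.08 for ceh-79, 3.997 for ceh-1, 3.59 for ceh-23, -1.07 for ceh-18 and -6.50 for ceh-9, with adjusted p from 6.27e-07 (ceh-79) to 0.0196 (ceh-18). With AWA and AWB fitted alone ceh-79, ceh-23 and ceh-9 were called, ceh-18 was not, and the other 3 did not pass the count filter. Levels were higher in 4 of 4 AWA libraries than in every AWB library for ceh-54, ceh-36 and ceh-79, and overlapped for ceh-1 and ceh-23. They were lower in every AWA than in every AWB library for ceh-9 and ceh-18.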

How the results depend on the processing

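Of 426 called differences over all comparisons, 1 changed sign under an alternative, ceh-60 in ASG against the other types (2.03, and -0.15 without ASG 15). Of 619 not called, 225 changed sign under at least 1. The counts of called homeobox genes kept within 1.5 times of the values given under most settings. Exceptions were DD against the other types (5), which was 8 with library totals alone, 11 with the DESeq2 Wald test and 12 with pan-neuronal 1, AWA 20 and AWB 51 left out together; PVD against the other types (5), which was 8 with the Wald test and 8 with those libraries left out; and AWA against AWB (7), which was 3 with these groups fitted alone, where 3 others did not pass the filter. For DD and PVD the cause was not tested. With each library left out in turn, counts ran from 43 to 49 (pan-neuronal against all-cell), 38 to 39 (ASG), 35 to 39 (AWA), 36 to 41 (AWB), 31 to 34 (AVE), 29 to 33 (AVG), 32 to 35 (DD), 34 to 36 (VD) and 10 to 30 (PVD, 10 without PVD 62, which leaves 1 library assumed to vary like the other groups) against the pan-neuronal sort. Against the other types they ran from 20 to 27 (ASG), 12 to 17 (AWA), 9 to 11 (AWB), 6 to 11 (AVE), 3 to 8 (AVG), 3 to 9 (DD), 6 to 15 (VD) and 4 to 8 (PVD), and from 6 to 9 for AWA against AWB and 0 to 0 for DD against VD. Library totals alone moved the median of all genes by -0.47 between the reference sorts, by 0.35 in PVD, 0.34 in VD and 0.31 in DD against the pan-neuronal sort. They moved the ASG split against the other types from 8 and 16 to 7 and 23. No paired analysis was possible because the groups share no replicate numbers. Low depth limits PVD, AVG and AWB (library totals of 251586 to 1106751 counts), and 20 homeobox genes could not be tested.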
